A study of Homo sapiens with 8 samples.

Results

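The genes described here are the 7 cyclin-dependent kinase (CDK) inhibitors of the CDKN1 and CDKN2 families and the 3 GADD45 genes, read from RNA sequencing of podocytes with and without induction of the Hippo kinase LATS2. They were chosen by symbol, and each of the 10 symbols is the sole name of 1 row among the 29004 loci of the deposited gene table, although the bounds of CDKN2A and CDKN2B are also those of an antisense RNA with a row of its own. The cells were AB8/13, an immortalized human podocyte line cultured at 33 °C, here as 1 stable line that carries wild-type LATS2 in a lentiviral, doxycycline-inducible vector. Doxycycline at 125 ng/mL for 8 h induced the construct in 4 LATS2 OE samples, and 4 untreated samples received no drug. Drug and construct changed together, so their effects cannot be told apart. The table gives 1 pooled value per group in FPKM, a unit scaled for transcript length and sequencing depth. It holds no value for any of the 8 single samples, so each difference below is a description without replicate error or test. The authors' own p-values and q-values were not used, so whether a difference exceeds the spread between samples was not assessed here. Depth per sample is unknown too. In most cells of 1 FPKM or more the decimal point was lost, which leaves the level of most of these genes open by powers of 10. Their ratios between the groups read the same with and without the deposited log2 fold change, which was used to put the point back. Without that column the point was placed where both group values lay closest, which leaves moderate ratios unchanged by design.

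CDK inhibitors hold the cell cycle by binding the kinases that drive it. The CIP/KIP proteins p21 (CDKN1A), p27 (CDKN1B) and p57 (CDKN1C) bind several cyclin-CDK complexes, and p27 and p57 mark the differentiated podocytes of the glomerulus, which do not divide. The INK4 proteins p16 (CDKN2A), p15 (CDKN2B), p18 (CDKN2C) and p19 (CDKN2D) bind CDK4 and CDK6 and keep the retinoblastoma protein RB active. The GADD45 proteins are small stress sensors that bind the kinase MAP3K4 upstream of p38 and JNK, the replication clamp PCNA, and the CDK1-cyclin B1 complex. Lines of the AB8/13 type are immortalized with a temperature-sensitive SV40 large T antigen, a viral protein that is stable at the permissive temperature and binds RB, and its level was not analysed here.

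LATS2 was 20.1-fold higher in LATS2 OE than in untreated samples, a log2 ratio of 4.33 that rests on the deposited log2 fold change for the place of the decimal point, since the FPKM digits alone would read as 1.01. Of 12 podocyte markers, 5 reached 1 FPKM in each group (SYNPO, PODXL, CD2AP, ACTN4 and PLA2R1, with log2 ratios from -0.16 to 0.29). The defining slit diaphragm gene NPHS1 stood at 0.00875 and 0.00616 FPKM in untreated and LATS2 OE samples, and the podocyte transcription factor WT1 had 0.413 and 0.412 FPKM. All 5 endothelial markers were below 1 FPKM, and this level was reached by 2 of 4 mesangial and stromal markers, 1 of 5 tubular markers and 1 of 4 leukocyte markers, whose log2 ratios lay between -0.19 and 0.21, and the part of other cell types in the results was not tested. As these were bulk cultures, fewer cells carrying a transcript and less transcript per cell cannot be told apart.

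A ratio of at least 1.5-fold in either direction was used to sort the genes. Of the 10 genes, 3 were higher and 2 lower in LATS2 OE by this measure, against 8.67% higher and 6.61% lower, or 15.3% together, among the 20626 loci with a ratio. Of these 5 genes, GADD45G lay below 1 FPKM in both groups. Loci that reached 1 FPKM in each group are called expressed below. Among the 9 expressed genes, 2 were higher, CDKN1A and CDKN1C (22.2%, against 1.32% of 12212 expressed loci), and 2 were lower, GADD45A and GADD45B (22.2%, against 1.85%). Together these were 44.4% of the 9 genes, against 3.17% of expressed loci. The genes and the 1.5-fold mark were chosen with earlier results of these data known, so this contrast is a description only. With 1 FPKM added to both values at the lowest level the digits allow, CDKN1A (0.52), CDKN1C (0.54) and GADD45A (-0.53) came inside the mark, which left 0 genes higher and 1 lower, and at the highest level they did not. The other 5 of these 9 genes, CDKN1B and the 4 INK4 genes, stayed within 1.5-fold. The median log2 ratio of the 9 genes was 0.11, beside -0.0042 over all expressed loci, with members on both sides of 0.

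**Figure D1:**
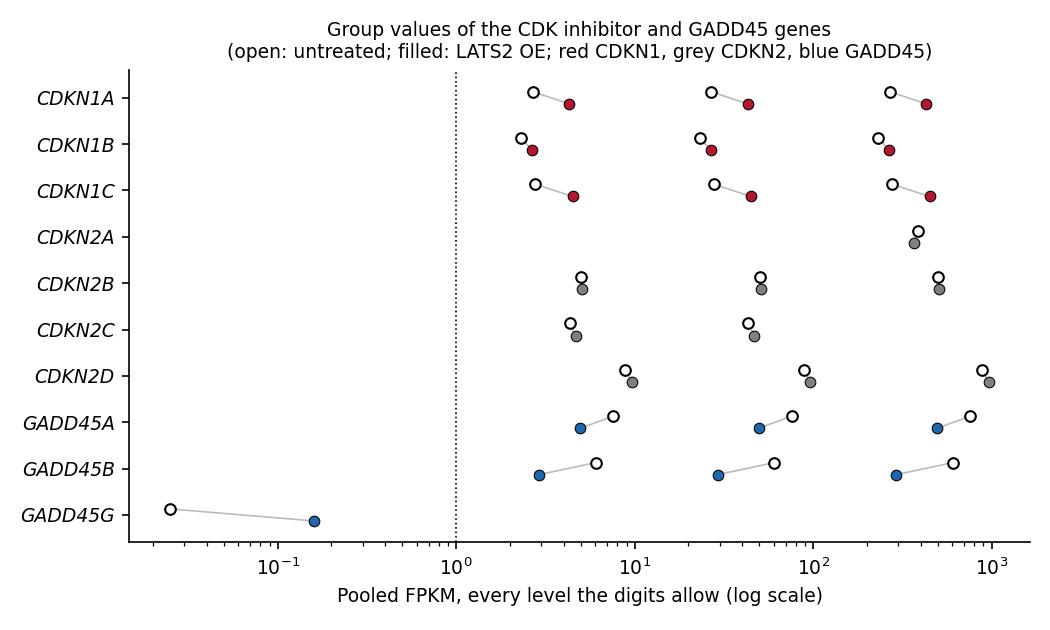
Pooled FPKM of each gene on a log axis, untreated (open points) above LATS2 OE (filled points), joined by a line. Where the deposited digits leave the level open by a power of 10, every possible pair is drawn; CDKN2A and GADD45G have a single pair, and within a gene the ratio is the same at each level.

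The CIP/KIP genes were all higher in LATS2 OE, by unequal amounts. CDKN1A, the stress-responsive inhibitor p21, had 2.68 FPKM in untreated and 4.29 FPKM in LATS2 OE samples at the lowest level that the digits allow, 26.8 and 42.9 FPKM at the next and 268 and 429 FPKM at the highest. It was 1.60-fold higher, a log2 ratio of 0.68, and 122 of 12212 expressed loci had a higher ratio. CDKN1C, the imprinted inhibitor p57, was alike, with 2.78 FPKM in untreated and 4.50 FPKM in LATS2 OE samples at the lowest possible level. Its ratio was 1.62-fold, a log2 ratio of 0.70, with 111 such loci above it. CDKN1B, the inhibitor p27, whose protein is mainly controlled by degradation, had 2.31 and 2.67 FPKM at the lowest possible level. It was 1.16-fold higher, a log2 ratio of 0.21, which 1036 expressed loci exceeded, inside the range from -0.52 to 0.43 that held the middle 95% of these loci.

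The INK4 genes differed little between the groups. CDKN2A, which encodes p16 and, from another reading frame, the MDM2 inhibitor ARF, had the only settled level among the inhibitors, 385 FPKM in untreated and 367 FPKM in LATS2 OE samples, a log2 ratio of -0.07. In untreated samples CDKN2A was thus higher per length than CDKN1A, CDKN1B, CDKN1C and CDKN2C at any level their digits allow, at most 268, 231, 278 and 43.4 FPKM, and higher than 8470 of the 12212 loci at their highest reading (69.4%). The locus does not separate transcripts of p16 from those of ARF. CDKN2B, its neighbour that encodes p15, had a log2 ratio of 0.01, from 5.03 to 5.07 FPKM at the lowest possible level. CDKN2C had one of 0.11, with 4.34 and 4.68 or 43.4 and 46.8 FPKM, and CDKN2D one of 0.13, with 8.83 and 9.64 FPKM at the lowest possible level. All 4 ratios lay between -0.07 and 0.13, and the family's median of 0.06 was close to that of all loci.

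The GADD45 genes differed in direction. GADD45B, the member induced by TGF-beta and NF-kB, had 6.07 FPKM in untreated and 2.92 FPKM in LATS2 OE samples at the lowest possible level. It was 2.08-fold lower, a log2 ratio of -1.06, and of all expressed loci only 56 had a lower ratio. GADD45A, the founding member, induced by DNA damage, had 7.60 and 4.94 FPKM at the lowest possible level and was 1.54-fold lower, a log2 ratio of -0.62, with 202 loci below it. It stood only just past the 1.5-fold mark. GADD45G, the third member, had 0.0250 FPKM in untreated and 0.160 FPKM in LATS2 OE samples. It was 6.41-fold higher, a log2 ratio of 2.68, which 33 of all 20626 loci with a ratio exceeded. Both values are near 0, and of 8076 loci below 1 FPKM in both groups 32.9% differed by at least 1.5-fold. The log2 ratio was 1.06 with 0.1 FPKM added to both values.

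**Figure D2:**
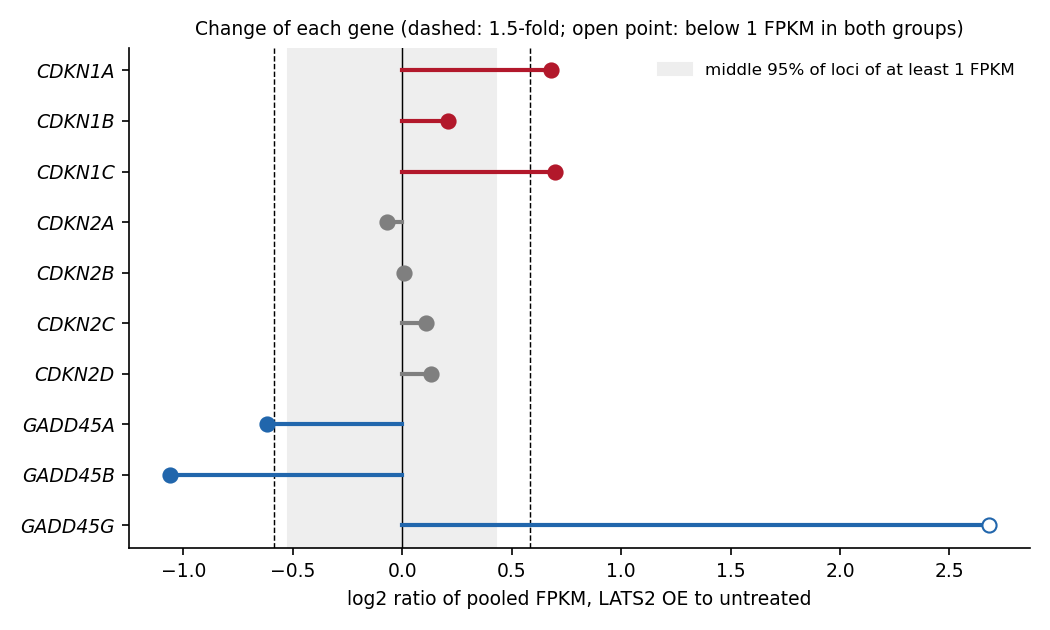
log2 ratio of pooled FPKM, LATS2 OE to untreated, for each gene, with the 1.5-fold marks dashed and the middle 95% of expressed loci shaded (-0.52 to 0.43). CDKN1A and CDKN1C at 0.68 and 0.70 and GADD45A and GADD45B at -0.62 and -1.06 lie outside the shaded range, and the 4 CDKN2 genes lie near 0.

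**Figure D3:**
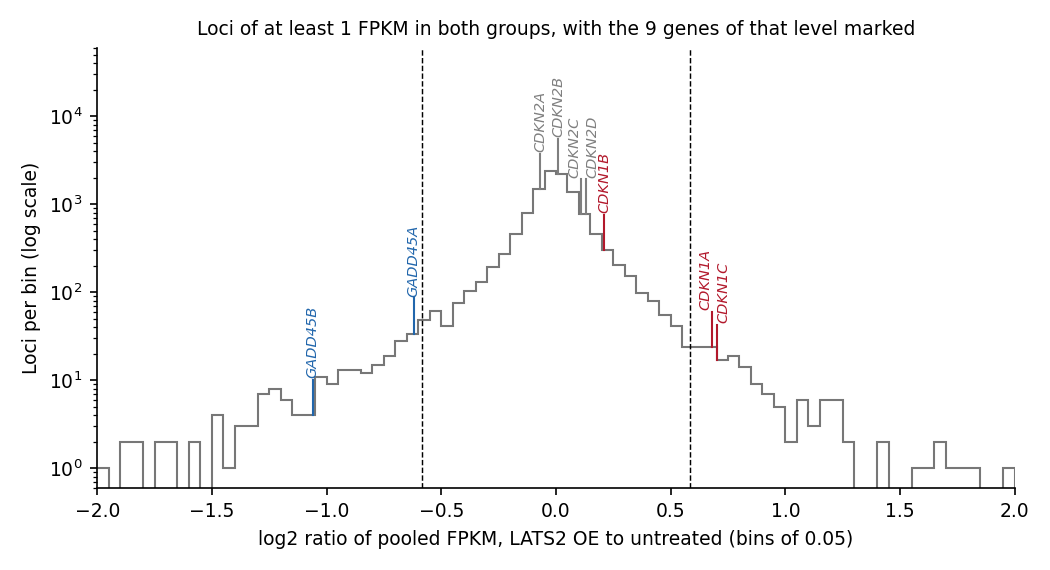
Number of expressed loci per 0.05 of log2 ratio, on a log axis, with the 9 expressed genes marked at their own ratio. CDKN1A and CDKN1C stand in the upper tail, GADD45A and GADD45B in the lower tail and the CDKN2 genes in the peak; LATS2, at 4.33, lies beyond the axis.

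All 10 genes are annotated as protein-coding, and their loci are given in hg19. CDKN1A spans chr6:36644237-36655116 on the plus strand, and 4.87% of its exon bases are shared with DINOL, a long noncoding RNA of the minus strand. CDKN1C spans chr11:2904448-2907105 on the minus strand, GADD45A chr1:68150860-68154021 on the plus strand and GADD45B chr19:2476123-2478257 on the plus strand, and no exon bases of these are shared with another annotated gene. CDKN1B spans chr12:12870204-12875316 on the plus strand, CDKN2D chr19:10677138-10679655 on the minus strand and GADD45G chr9:92219927-92221469 on the plus strand. CDKN2A spans chr9:21967138-21994490 on the minus strand and shares 15.3% of its exon bases with the antisense RNA CDKN2B-AS1 (ANRIL). CDKN2C spans chr1:51434367-51440309 on the plus strand and shares 20.4% with an unnamed antisense RNA. Reads were made with a kit that does not mark strand, so the sense and antisense signals cannot be told apart there. The locus given for CDKN2B, chr9:21994790-22121093 with 126304 bp, is the one given for CDKN2B-AS1 as well, and far longer than the 6403 bp of the annotated gene. CDKN2B-AS1 had a log2 ratio of 0.18, CDKN2A-AS1 one of 0.53 at 0.649 and 0.935 FPKM, and MTAP, the next gene of the same region, one of -0.04.

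Neighbouring genes were set beside the members. The 5 nearest named expressed loci on either side of CDKN1A all had log2 ratios between -0.06 and 0.21. CDKN1C lies in an imprinted region, where SLC22A18 at 1.5 kb and PHLDA2 at 42.4 kb both had a ratio of 0.04, and KCNQ1OT1, the antisense RNA that governs the imprint, had one of 0.04 at 0.429 and 0.441 FPKM. All 10 neighbours of CDKN1C lay between -0.28 and 0.26. The 10 neighbours of GADD45B lay between -0.15 and 0.01 and those of GADD45A between -0.50 and 0.14. Over all 10 genes, 1 of 93 neighbouring loci, which include CDKN2A and CDKN2B as neighbours of each other, differed by at least 1.5-fold, against 3.17% of all expressed loci. It was DIRAS2, 1150.6 kb from GADD45G, with a log2 ratio of 0.76, which is named after its value was seen.

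**Figure D4:**
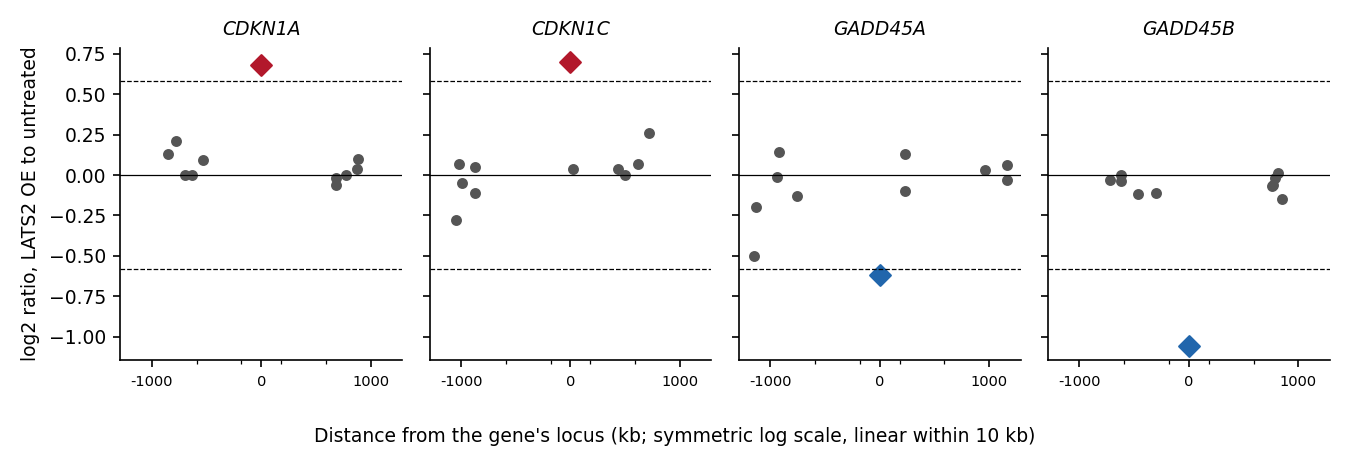
log2 ratio of the 5 nearest named expressed loci on each side of CDKN1A, CDKN1C, GADD45A and GADD45B (grey points) against their distance in kb on a symmetric log axis, with the gene itself at 0 (diamond) and the 1.5-fold marks dashed. In each panel the diamond lies past a mark and the 10 neighbours lie between the marks.

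Promoter sequences were set beside these ratios. In the RefSeq promoter windows, 250 bases before and 50 after each start site, 8 of the 10 genes had an entry (11 windows in all), and CDKN1C and GADD45A had none. The bases upstream of the start sites of CDKN1A, CDKN1B and GADD45B are shown, since these are the inhibitor that was higher, its relative that stayed within 1.5-fold, and the gene that was furthest lower. Each was matched to hg19, at chr6:36646241-36646490, chr12:12870052-12870301 and chr19:2475875-2476124, all on the plus strand. Capitals mark matches, on either strand, to the TATA box letters TATAAA, the CCAAT box, the GC box letters GGGCGG and the E-box letters CACGTG, and 2 GC boxes of CDKN1A share 1 base.
CDKN1A: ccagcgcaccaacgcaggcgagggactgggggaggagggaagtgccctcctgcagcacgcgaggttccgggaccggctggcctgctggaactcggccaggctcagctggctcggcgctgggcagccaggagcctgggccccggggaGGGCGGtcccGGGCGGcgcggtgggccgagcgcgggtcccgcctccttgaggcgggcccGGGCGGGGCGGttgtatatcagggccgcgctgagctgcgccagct
CDKN1B: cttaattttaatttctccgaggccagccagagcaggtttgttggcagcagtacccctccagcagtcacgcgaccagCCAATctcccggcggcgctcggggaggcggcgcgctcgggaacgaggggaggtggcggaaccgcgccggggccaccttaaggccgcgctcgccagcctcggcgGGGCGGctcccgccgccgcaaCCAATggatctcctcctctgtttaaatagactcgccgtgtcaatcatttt
GADD45B: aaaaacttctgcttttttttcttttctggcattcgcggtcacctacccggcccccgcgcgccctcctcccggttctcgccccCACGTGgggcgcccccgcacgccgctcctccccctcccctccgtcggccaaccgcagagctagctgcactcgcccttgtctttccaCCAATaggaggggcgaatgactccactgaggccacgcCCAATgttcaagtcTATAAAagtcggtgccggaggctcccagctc
The window of CDKN1A holds 4 GC boxes between positions -104 and -35 from the start site, a motif present in 45% of all 35116 windows of this length. That of CDKN1B holds 1 GC box upstream at -71 and CCAAT at -174 and -50 and, after the start site, at 30. CCAAT is found in 34.6% of all windows. The stretch shown for CDKN1A lies inside the locus given above, and that for CDKN1B lies partly inside it, from chr12:12870204 on. GADD45B has TATAAA from -31 to -26, as 11.5% of all windows do anywhere in their length, CCAAT at -82 and -45, and an E-box at -168, as 7.26% do. The TEAD core CATTCC, which 14% of all windows hold, was matched in CDKN2B and in 2 of the 3 windows of CDKN2C, whose ratios were 0.01 and 0.11, and in no window of the other 6 genes. No window of the 8 genes held the AP-1 letters TGANTCA (7.71% of all windows), the cAMP response element TGACGTCA (1.85%), the FOXO letters TGTTTAC (3.42%) or an NF-kB site (5.91%). Such matches describe the letters of a short window and say nothing of binding.

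The kinases and cyclins that the inhibitors bind differed by less than 1.5-fold, as did all but 3.17% of expressed loci. Of 16 cyclin and CDK genes, 14 were expressed, 0 of them past 1.5-fold in either direction, with a median log2 ratio of -0.05. The lowest were CCND1 at -0.43, which encodes the cyclin D1 partner of CDK4 and CDK6, CCNH at -0.31, a subunit of the CDK-activating kinase, CDK6 at -0.25 and CCNA2 at -0.19. CDK1, CDK2, CDK4, CCNE1 and CCNB1 had ratios of 0.03, 0.00, -0.07, 0.12 and 0.05. Of 13 RB and E2F genes 0 were past 1.5-fold, with the highest values at the repressive factors E2F7 (0.40) and E2F8 (0.31) and at E2F2 (0.29), while E2F5 stood at -0.15. Of 24 genes of S phase and mitosis 0 were past 1.5-fold, with a median of 0.04. In this list the checkpoint kinase WEE1 had the highest ratio, 0.37, the CDK-activating phosphatase CDC25A the lowest, -0.30, and CDC25B and the replication licensing factor CDC6 had 0.20 and -0.16.

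Of 27 regulators of CDKN genes, 3 were higher and 1 was lower by at least 1.5-fold at any level. Among all loci with a ratio, 8.67% were higher and 6.61% lower, 15.3% together. MDM2, which belongs to the turnover genes below and not to these regulators, encodes a ubiquitin ligase that promotes turnover of the p21 protein. Its transcript had a log2 ratio of 0.09, and these data hold no level of the p21 protein. MYC, a transcription factor that represses CDKN1A and CDKN2B through ZBTB17, had a ratio of -1.25. Of the 27 regulators 23 were expressed, 1 of which was higher (ETS2, 0.62) and 1 lower (MYC) by at least 1.5-fold, with a median of 0.05. Among all expressed loci 1.32% were higher and 1.85% lower by this mark. The other regulators past the mark were not expressed in both groups, the Notch target HES1 with 0.775 and 1.70 FPKM (1.13) and TP73 with 0.126 and 0.195 FPKM (0.63), both named after their values were seen. SMAD3, which carries TGF-beta signals to CDKN1A and CDKN2B, had 0.45 and the ETS factor ETS1 -0.48. Of 14 genes of inhibitor turnover 0 were past 1.5-fold, with a median of 0.00, SKP2, the ubiquitin ligase subunit that recognizes p27, at -0.19, the p21 degradation factors DTL and PSME3 at 0.09 and -0.11, and PCNA at 0.04.

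Around the GADD45 genes, 18 of 20 partners and p38 or JNK kinases were expressed, with a median of 0.02. Of these 18, 0 were past 1.5-fold, against 3.17% of all expressed loci. At any level 1 of the 20 was higher, against 8.67% of all loci with a ratio. It was the p38 kinase activator MAP2K6, with 0.236 and 0.519 FPKM (1.14), named after its value was seen. MAP3K4, which GADD45 proteins activate, had a log2 ratio of 0.23, the JNK gene MAPK8 one of -0.22, the p38 gene MAPK13 one of 0.17 and the DNA repair glycosylase TDG one of -0.25. Of 22 transcriptional regulators of GADD45 genes 1 was past 1.5-fold, the stress factor ATF3 at 0.65, and the list had a median of -0.03. The AP-1 subunit FOSL1 and the early gene EGR1 stood at -0.57 and -0.48. Over the 7 lists, 120 of 128 different genes were expressed, of which 2 were higher (ETS2 and ATF3) and 1 was lower (MYC) by at least 1.5-fold, beside the 3.17% of all expressed loci.

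**Figure D5:**
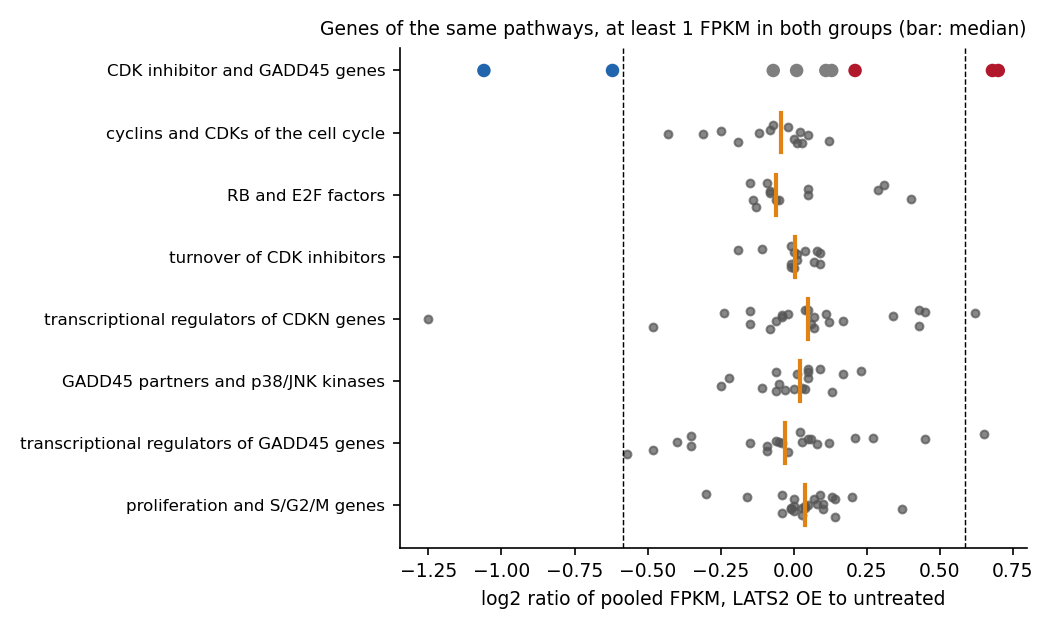
log2 ratio of pooled FPKM, LATS2 OE to untreated, of each expressed gene in 7 pathway lists (grey points, orange bar at the median) under the CDK inhibitor and GADD45 genes (coloured as before), with the 1.5-fold marks dashed. The list medians lie between -0.06 and 0.05, and MYC, ETS2 and ATF3 lie past a mark.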

How the data were processed

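RNA of 4 untreated and 4 LATS2 OE samples was poly(A)-selected and sequenced in single reads. The submitters' processing notes name Trimmomatic 0.33, TopHat, Cufflinks and the build hg19. The other versions and the annotation are unknown here. The authors deposited 1 table with 1 pooled FPKM value per group and locus. It also holds columns of their own comparison (log2 fold change, test statistic, p-value and q-value), none of which is tested here. Most cells of at least 1 had lost the decimal point. It was put back so that both FPKM values fitted, within 0.002, the deposited log2 fold change, which entered only here as a score for placing the point. This departs from the plan, in which that column was not to be used. 20626 of 20636 loci above 0 in both groups could be read, and 27 of these read otherwise from the FPKM digits alone, LATS2 being the only one of them named here. The reading was tested on simulated data. Log2 ratios of LATS2 OE to untreated were computed without a pseudocount in Python (3.11.15, pandas 2.3.3), and no test was run. Named genes were the 10 members, LATS2, the 4 largest ratios among genes of each list with at least 1 FPKM in both groups, direct partners and adjoining loci. The members, lists and the 1.5-fold mark were chosen with earlier results of these data known. Starts are 1-based. Promoter windows came from RefSeq (GRCh38.p14) and were matched to hg19. Alternatives were other pseudocounts, folds, scaling, a filter at 1 FPKM and other ways of placing the point. It is not stated whether samples of a group were separate cultures. Some genes of the lists and 1 motif searched are not reported here.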

Additional observations from a re-analysis of the deposited data

How the results depend on the processing

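The group values carry no replicate error, so only the reading and scaling could be varied. No paired analysis was possible because the table holds 1 pooled value per group, and for the same reason no replicate could be left out. Reading the decimal point from the FPKM digits alone and centring on the median of all loci changed no gene's side of the 1.5-fold mark. The first takes the placement at which both group values lie closest, so it could move only large ratios and is no independent check. A pseudocount of 1 FPKM, added at the lowest level that the digits allow, left 0 genes higher and 1 lower, with log2 ratios of 0.52 for CDKN1A, 0.15 for CDKN1B, 0.54 for CDKN1C, -0.53 for GADD45A, -0.85 for GADD45B and 0.18 for GADD45G. At the highest possible level the same pseudocount moved GADD45G alone, again to 0.18, and 0.1 FPKM brought it to 1.06 at either level. With 2-fold as the mark, 1 gene was higher (GADD45G) and 1 lower (GADD45B). The share of all loci past the mark, 15.3%, was 27.9% when a value 25% above the other sufficed, 6.85% at 2-fold and 3.17% among expressed loci. On the given strand alone, fewer promoter windows held TATAAA (7.33%), CCAAT (19.6%), GGGCGG (30.6%), CATTCC (7.57%), TGTTTAC (1.71%) and the NF-kB site (3.59%). The planned comparison of protein sequences was not run. Depth per sample is unknown, so the counting error of low values such as those of GADD45G cannot be given.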

Other observations

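With 2 group values per gene, likeness of pattern reduces to the size of the ratio. The named loci of at least 1 FPKM whose log2 ratio lay nearest to that of CDKN1A were KCNN4 (0.681), TRIB1 (0.682) and RAB3D (0.682). Nearest to GADD45B were ST6GAL2 (-1.053), IRS1 (-1.047) and ADAMTS1 (-1.035).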
